A study of Mus musculus with 8 samples.

Results

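The cytosolic ribosomal protein genes were taken from the deposited gene table by their names, as symbols made of Rpl or Rps and a number with an optional paralog ending, together with Rplp0, Rplp1, Rplp2 and Rpsa. The rule found 87 genes of 55401 in the table, 33 named for the small subunit and 54 for the large subunit. GENCODE M21 annotated 83 of them as protein coding, and the other 4 (Rps4l, Rpl6l, Rpl32l and Rps12l1) as processed pseudogenes, of which Rps4l was listed as transcribed. Of the 87 genes, 84 were tested, having reached 0.5 FPKM in 4 or more of the libraries. FPKM is a read density, scaled by the exon length of the gene and by the mapped reads of the library, so that levels of different genes are compared per length. The rule missed genes that encode further ribosomal proteins under other names, among them Rps3a1, Fau and Rack1, and these were counted separately.

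Kidney RNA of 8 diabetic mice was sequenced after poly(A) selection, 1 library per mouse, from 4 mice given recombinant FGF4 (rFGF4; mice 1, 2, 3 and 5) and 4 given vehicle (mice 2, 3, 4 and 5). The sample labels describe a db/db model, in which the leptin receptor is defective, whereas the text of the study names mice made diabetic with streptozotocin for RNA sequencing, and names PBS as the vehicle. For its diabetic mice in general, the study describes male mice injected intraperitoneally with rFGF4 or PBS every second day over some weeks of adult life, whereas the labels give no age, dose or length of treatment for the individual libraries. No non-diabetic kidney was among these libraries. The comparison asks how rFGF4 treatment of the diabetic kidney was accompanied by differences in the RNA of the translation machinery. Each library came from its own mouse, and the p-values set a difference between groups against the spread between mice.

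Each cytosolic ribosome carries a single copy of nearly every ribosomal protein, in a small subunit that reads the mRNA and a large subunit that joins amino acids. The genes are expressed in all cells and their mRNAs are short and abundant. Most of these mRNAs begin with a C followed by an unbroken run of pyrimidines, the terminal oligopyrimidine (TOP) motif, through which mTORC1 and LARP1 control their translation. Mammalian genomes also hold many processed copies of these mRNAs, which lack introns and are mostly called pseudogenes, and reads from a parent mRNA can be assigned to such a copy.

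Start-site sequences are shown first, as examples of starts with and without the pyrimidine run for which these mRNAs are known. RefSeq promoters on GRCm38.p6 (250 bases before and 50 bases after a start) were found for 64 of the 87 genes. The windows below hold 15 bases on each side of the annotated start, 5′ to 3′ on the strand of the gene, with the pyrimidine run, where present, in capitals. The genes are those that results turn on, and the examples with a run do not stand for its share in the set, which follows them.
Rps10 (chr17:27635230-27635259, minus strand): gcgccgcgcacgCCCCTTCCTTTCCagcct
Rps18 (chr17:33955651-33955680, minus strand): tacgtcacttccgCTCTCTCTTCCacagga
Rps6 (chr4:86857353-86857382, minus strand): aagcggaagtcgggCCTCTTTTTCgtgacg
Rps27 (chr3:90213634-90213663, minus strand): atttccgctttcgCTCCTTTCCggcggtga
Rplp2 (chr7:141447636-141447665, plus strand): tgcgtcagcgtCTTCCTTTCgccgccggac
Rpl22l1 (chr3:28805493-28805522, plus strand): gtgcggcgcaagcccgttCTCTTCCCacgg
Rps27l (chr9:66946071-66946100, plus strand): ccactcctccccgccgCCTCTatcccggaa
Rpl7l1 (chr17:46782642-46782671, minus strand): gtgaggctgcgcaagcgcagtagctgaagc
Rps4x (chrX:102189377-102189406, minus strand): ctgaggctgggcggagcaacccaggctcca

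The run was 13 bases long in Rps10, 11 in Rps18, 10 in Rps6, 9 in Rps27 and Rplp2, 8 in Rpl22l1 and 5 in Rps27l. Rps4x and Rpl7l1, a paralog of Rpl7 that is known for a part in ribosome assembly, had no run of the kind searched that began within 5 bases of the start, and the same held for the second annotated start of Rps27l and both annotated starts of Rpl22. A C followed by 4 or more C or T and starting within 5 bases of the annotated start, on the strand of the gene, was present in 30 of the 64 genes with a promoter entry, 46.9%, against 21.2% of all 27025 genes in the promoter table. The motif CCGGAAG, bound by factors of the ETS family and searched on both strands of the 300 bases, was found in 39.1% of the 64 genes and in 9.93% of all genes. TATAAA, searched in the same way, was found in 12.5% and 15.7%. These shares describe the annotated starts, which may lie some bases from the start used in kidney.

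The second sequence feature is the likeness of the genes to their processed copies. The coding sequence of each gene was divided into all its words of 50 bases, and the words were looked up in the transcripts of every other GENCODE M21 gene. The median gene had 90.3% of its words in at least 1 other gene, 29 of the 87 genes had all of them there, and 3 had none. Rps27, on chr3:90212522-90213651 (minus strand, GRCm38), and Rps27rt, a retrotransposed copy on chr9:114982366-114982739, had the same coding sequence in all 255 bases. The next pair shows coding bases 379 to 438 of Rps10 beside Rps10-ps2, a processed pseudogene on chr16:20822145-20822640 that differed from Rps10 at 5 of 496 aligned bases, with the differing bases in capitals.
Rps10: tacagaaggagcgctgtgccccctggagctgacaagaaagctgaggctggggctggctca
Rps10-ps2: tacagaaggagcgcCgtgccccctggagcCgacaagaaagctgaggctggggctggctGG
Coding bases 312 to 371 of Rps18 follow, beside Rps18-ps6, a copy on chr13:97760072-97760632 that GENCODE lists as protein coding and that differed from Rps18 at 4 of 459 bases.
Rps18: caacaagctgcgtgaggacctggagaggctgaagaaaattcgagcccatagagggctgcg
Rps18-ps6: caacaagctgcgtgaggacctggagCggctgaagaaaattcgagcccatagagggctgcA
For contrast, Rps27l, a functional paralog of Rps27 on chr9:66946086-66949516, differed from Rps27 at 61 of 255 coding bases, and the first 60 are shown.
Rps27: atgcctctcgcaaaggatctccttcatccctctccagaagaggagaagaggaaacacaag
Rps27l: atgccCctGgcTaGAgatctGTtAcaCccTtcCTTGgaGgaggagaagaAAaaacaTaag

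The ribosomal protein genes together took a small part of each library that varied more between mice than between groups. Their share of the summed FPKM was 4.09%, 2.56%, 2.08% and 1.72% in rFGF4 mice 1, 2, 3 and 5. In vehicle mice 2, 3, 4 and 5 it was 1.63%, 2.08%, 1.68% and 2.73%. The group means were 2.61% ± 1.04 and 2.03% ± 0.51 (SD, n = 4 each), and the groups overlapped. No test was run on this sum.

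**Figure D1:**
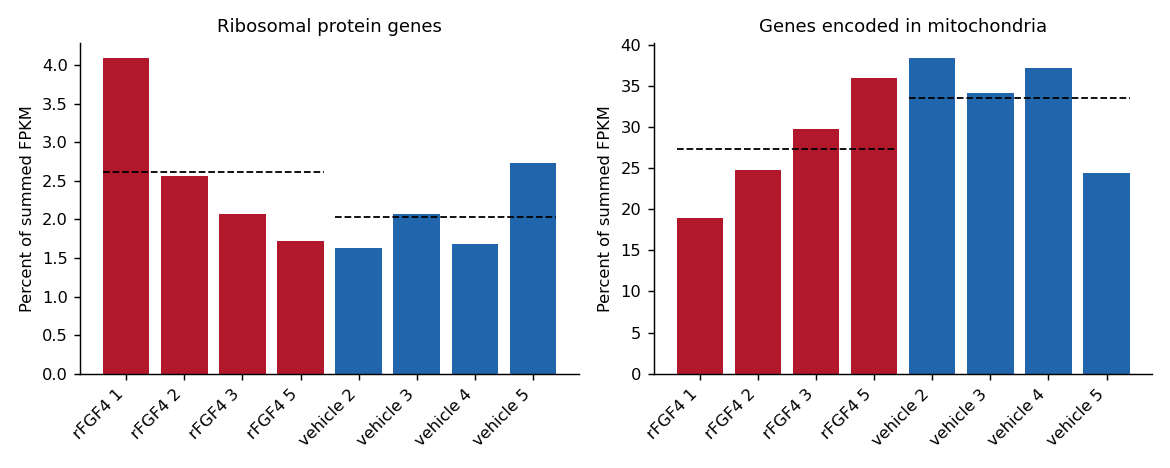
Percent of the summed FPKM of each library in the 87 ribosomal protein genes (left) and in the genes encoded in mitochondria (right). Bars are single mice, 4 given rFGF4 (red) and 4 given vehicle (blue), and dashed lines are group means. The mouse with the highest ribosomal share, rFGF4 mouse 1 at 4.09%, had the lowest mitochondrial share, 19.0%.

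The share of genes encoded in mitochondria ran in the opposite order over the 8 libraries. It was 19.0%, 24.7%, 29.8% and 36.0% in the rFGF4 mice and 38.4%, 34.2%, 37.2% and 24.4% in the vehicle mice, in the order given above. Both shares are parts of the same sum. Of the nuclear genes alone, the ribosomal protein genes took 5.04%, 3.40%, 2.96% and 2.68% in the rFGF4 mice and 2.64%, 3.15%, 2.68% and 3.62% in the vehicle mice, so rFGF4 mouse 1 and vehicle mouse 5 were again the highest of their groups.

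These 2 libraries also stood apart in markers of cell types. The summed FPKM of 10 markers of kidney cells (among them Lrp2, Slc34a1, Umod and Aqp2) was 1256 in rFGF4 mouse 1 and 1630 in vehicle mouse 5, against 2089 to 2472 in the other 6. The sum of 8 macrophage markers was 505 and 539, against 29.5 to 216, and that of 9 lymphoid markers reached 2816 and 23880, against 27.0 to 1457. Igkc made up most of the lymphoid sum. Of 7 red blood cell markers, the sum was 123 to 2667 in the rFGF4 mice and 1144 to 4332 in the vehicle mice, and of 5 endothelial markers 22.1 to 33.0 and 27.3 to 41.8. No marker of the 5 lists was at 0 in all libraries. The part of these cells in the ribosomal protein levels was not tested, and in whole kidney RNA more cells of a type and more RNA per cell cannot be told apart.

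Gene by gene, the same libraries led. Of the 84 tested genes, 73 were highest in rFGF4 mouse 1, 7 in vehicle mouse 5, 3 in vehicle mouse 3 and 1 in rFGF4 mouse 5. The genes were lowest mostly in vehicle mouse 2 (30 genes), vehicle mouse 4 (25), rFGF4 mouse 5 (13) and rFGF4 mouse 3 (10). On the log2(FPKM + 1) scale, the median gene lay 0.57 above its own mean in rFGF4 mouse 1 and 0.28 above it in vehicle mouse 5. In the other 6 libraries it lay between 0.25 below and 0.05 above. The median SD within a group was 0.345 for the 84 genes, compared with 0.275 for all 15150 genes tested. The 84 genes had a median level of 103 FPKM, whereas all genes tested include some near 0.5 FPKM, so genes of like level were not compared.

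**Figure D2:**
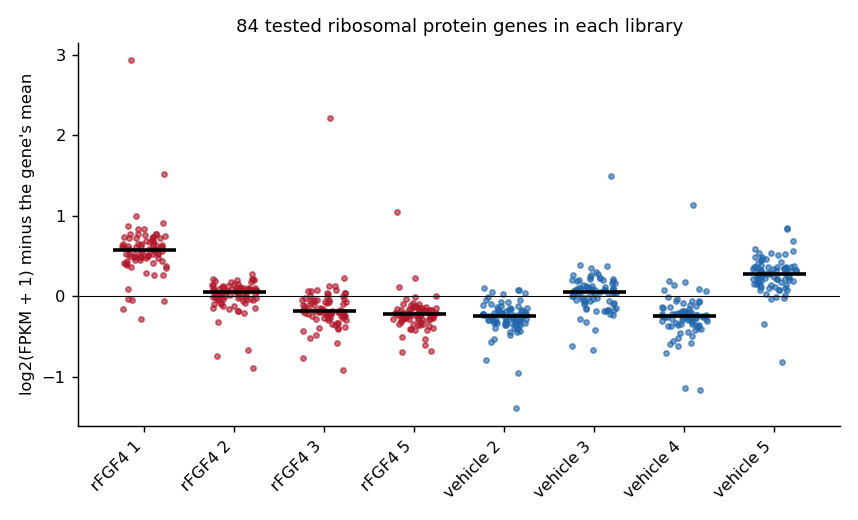
Each point is 1 of the 84 tested ribosomal protein genes in 1 library, drawn as its log2(FPKM + 1) minus the mean of that gene over the 8 libraries, with rFGF4 in red, vehicle in blue and the library median as a black bar. Nearly the whole set sits high in rFGF4 mouse 1 (median 0.57) and, to a lesser extent, in vehicle mouse 5 (0.28).

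No ribosomal protein gene was called higher or lower between rFGF4 and vehicle. The study's threshold (unadjusted p under 0.05, and a fold of 1.5 or more, or of 0.67 or less) was applied, with the fold taken as 2 to the power of the fitted log2 difference, to a limma fit of log2(FPKM + 1) over all 15150 genes tested. With it, limma called 0 of the 84 genes higher, where 1.09% of all genes tested were called, and 0 lower, where 0.442% were. An unadjusted p under 0.05 in either direction was reached by 1 gene, Rps10, 1.19% of the 84, against 4.62% of all genes tested. An adjusted p under 0.05 (Benjamini-Hochberg) was reached by 0 of the 84 and by 0% of all genes tested, and the smallest adjusted p among the 84 was 0.918. The FPKM of the 2 groups overlapped in all 84 genes, whereas 3.33% of all genes tested had groups that did not overlap.

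The log2 differences (rFGF4 minus vehicle) were small and mostly above 0. The median over the 84 genes was 0.10, with a middle range (25th to 75th percentile) of 0.02 to 0.17, and 68 of 84 lay above 0. Over all genes tested the median was 0.09 and 67.1% lay above 0. The small subunit (32 genes, median 0.11, 24 above 0) and the large subunit (52 genes, median 0.10, 44 above 0) gave nearly the same values. The sign of the median rested on rFGF4 mouse 1, since it was -0.08, with 22 of 84 above 0, when this library was left out. It was 0.21, with 78 of 84 above 0, without vehicle mouse 5, and 0.03, with 51 above 0, without both. All genes tested moved in the same directions. Their median was 0.01 (52.2% above 0) without rFGF4 mouse 1, 0.15 (72.3%) without vehicle mouse 5 and 0.07 (64.7%) without both. Relative to these, the median of the ribosomal protein genes was -0.09, 0.06 and -0.04.

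The share of genes above 0 also moved with the scaling of the libraries. It was 81.0% with FPKM as deposited, 53.6% after scaling to a common median ratio, 92.9% after scaling to a common sum of nuclear FPKM and 96.4% after scaling to a common total sum. These scalings put the median of all genes tested at 0.01, 0.16 and 0.26, compared with 0.09 as deposited. Relative to it, the median of the ribosomal protein genes was -0.01, 0.04 and 0.07, and 0.01 as deposited.

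**Figure D3:**
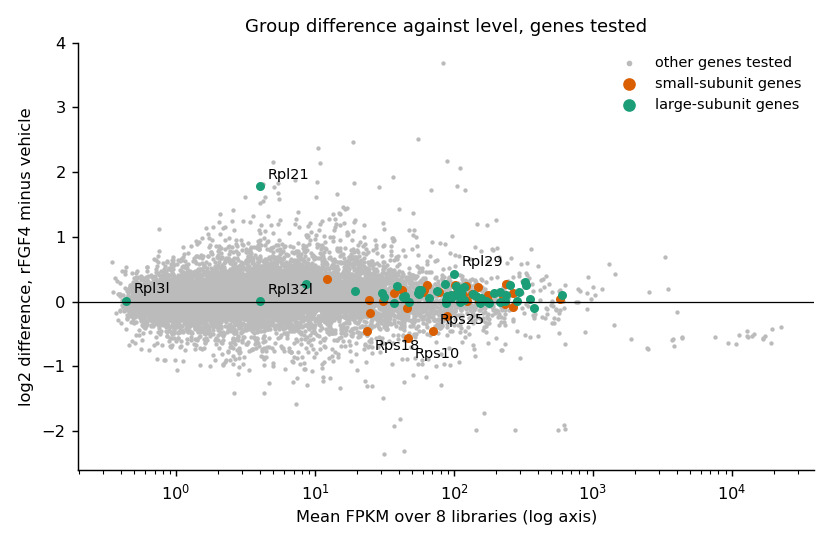
Log2 difference (rFGF4 minus vehicle) on the log2(FPKM + 1) scale against the mean FPKM over 8 libraries (log axis) for the 15150 genes tested, with small-subunit genes in orange, large-subunit genes in green and other genes in grey. The ribosomal protein genes lie in a narrow band around their median of 0.10, with Rps10 (-0.56), Rps18 and Rps25 (-0.45 each) below it and Rpl21 (1.79) far above it.

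The intervals of the fit show what differences these 8 mice leave possible. The 95% interval of the log2 difference lay within -1 and 1 for 79 of the 84 genes and within a fold of 1.5 in both directions for 30 of them. The median standard error was 0.23. The table holds no counts, so the counting error of an FPKM could not be set beside these errors.

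Rps10, a protein of the head of the small subunit and a gene mutated in Diamond-Blackfan anaemia, had the smallest p. Its FPKM was 43.3, 27.8, 30.9 and 48.6 in the rFGF4 mice (mean 37.6 ± 9.9, SD, n = 4). It was 48.0, 54.1, 50.7 and 67.5 in the vehicle mice (55.1 ± 8.7, n = 4). Only rFGF4 mouse 5 reached into the range of the vehicle group. The log2 difference was -0.56 (SE 0.20, 95% interval -1.02 to -0.10). The limma p was 0.0234 before and 0.918 after Benjamini-Hochberg adjustment, and the two-sided exact permutation test of the mean FPKM gave p = 0.0571. With 4 mice against 4, the smallest p of that exact test is 0.0286. Leaving out single libraries moved the log2 difference between -0.69 and -0.43, and it no longer had a limma p under 0.05 without rFGF4 mouse 2 (-0.43), rFGF4 mouse 3 (-0.48) or vehicle mouse 5 (-0.46). It was also above that limit after scaling to a common total sum (-0.34). Conversely, Rps10 was called lower at the study's threshold after median-ratio scaling (-0.66), with array weights (-0.63), with a block by mouse number (-0.67) and when 1 of 4 libraries was left out, namely that of mouse 1 (-0.64) or 5 (-0.69) of the rFGF4 group, or of mouse 2 (-0.62) or 4 (-0.60) of the vehicle group.

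Most of the summed FPKM of Rps10 and its 3 copies lay in Rps10-ps2. The FPKM of Rps10-ps2 was 192, 130, 129 and 123 in the rFGF4 mice and 112, 121, 117 and 161 in the vehicle mice. Rps10 itself held 17.1%, 16.3%, 18.0% and 26.7% of the sum of Rps10 and its copies in the rFGF4 mice. In the vehicle mice it held 28.2%, 29.0%, 28.6% and 27.5%, above each rFGF4 mouse, a pattern chosen after its values were seen and not tested. The sum itself was 253, 170.2, 171 and 182 against 170.4, 187, 178 and 245, and its log2 difference was -0.01 (SE 0.18). The call of Rps10 at an unadjusted p under 0.05 was lost when the copies were added (limma p = 0.95, exact permutation p = 0.971). Rps10 held 23.8% of the mean sum, so the sum mostly follows the copies and does not test the difference of Rps10 itself. This sum was chosen after the data were seen.

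Rps25, a small-subunit protein known for its part in initiation at internal ribosome entry sites, had the next smallest p. Its FPKM was 65.2, 70.4, 39.5 and 63.2 in the rFGF4 mice and 69.4, 83.1, 72.6 and 97.4 in the vehicle mice. The value of rFGF4 mouse 2 lay just inside the vehicle range and the other 3 lay below it. The log2 difference was -0.45 (SE 0.20, limma p = 0.0566, adjusted 0.918), and the exact permutation p was 0.0571. Summed with its 5 copies, of which the highest reached a mean of 22.1 FPKM, the log2 difference was -0.32 (SE 0.17).

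Rps27l, the paralog of Rps27 that is a known target of p53, was the next lower gene by p. It had FPKM of 86.4, 82.8, 72.7 and 88.5 in the rFGF4 mice and 85.7, 114, 98.2 and 88.0 in the vehicle mice. Its levels overlapped, with a log2 difference of -0.22 (SE 0.13, limma p = 0.14) and an exact permutation p of 0.143. The 3 other lower genes with the smallest p were Rps18 (-0.45, SE 0.69), Rps20 (-0.17, SE 0.35) and Rpl36 (-0.10, SE 0.23), all within the spread between mice.

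Rpl21, a large-subunit protein, had the largest difference and the largest spread. Its FPKM was 18.6, 0.380, 11 and 0.602 in the rFGF4 mice and 0.329, 0.618, 0.163 and 0.455 in the vehicle mice. Only rFGF4 mice 1 and 3 stood above the others, and the log2 difference of 1.79 came with an SE of 0.85 and a 95% interval of -0.15 to 3.73 (limma p = 0.0661, exact permutation p = 0.143). Leaving out rFGF4 mouse 2 or 5, its low values in that group, brought Rpl21 past the study's threshold, with log2 differences of 2.39 and 2.32.

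Nearly all of the FPKM of this sequence family was listed under other genes. Rpl21 held 0.487% of the FPKM of its family, made of Rpl21 and 24 copies, 17 of them with a mean of at least 1 FPKM. The family sum was 1148, 851, 655 and 694 in the rFGF4 mice and 719.9, 872, 689 and 983 in the vehicle mice, the highest mean of any family (827), with a log2 difference of 0.02 (SE 0.23). Rpl21-ps8, a processed pseudogene on another chromosome, had 53.2, 0.724, 27.4 and 0.485 FPKM in the rFGF4 mice and 0.488, 0.318, 0.327 and 1.13 in the vehicle mice. It was thus high in the same 2 mice as Rpl21.

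Rps18, a small-subunit protein at the interface of the subunits, showed a similar split along other libraries. Its FPKM was 15, 10.6, 9.26 and 39.1 in the rFGF4 mice and 6.38, 53.6, 41.6 and 14.3 in the vehicle mice. The highest 3 values came from rFGF4 mouse 5 and vehicle mice 3 and 4. Rps18-ps6 had 533, 366, 328 and 155 in the rFGF4 mice and 329, 196, 166 and 486 in the vehicle mice, so that it was lowest in the same 3 mice. Rps18 itself held 13.9% to 14.8% of the family sum in these 3 mice and 1.25% to 1.89% in the other 5, and that sum gave a log2 difference of 0.17 (SE 0.39).

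Rps27, a zinc-binding protein of the small subunit, traded places with Rps27rt in the same libraries. Rps27 had 264, 136, 125 and 85.8 FPKM in the rFGF4 mice and 145, 104, 99.3 and 254 in the vehicle mice. Rps27rt had 49.6, 134, 90.3 and 191 in the rFGF4 mice and 24.1, 228, 147 and 53.3 in the vehicle mice. Rps27 was lowest and Rps27rt highest in rFGF4 mouse 5 and vehicle mice 3 and 4. The SD within a group fell from 0.65 for Rps27 alone to 0.35 for the sum of Rps27 and its copies (log2 scale), and the log2 differences were 0.01 (SE 0.40) and 0.06 (SE 0.23).

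Rps6, the substrate after which S6 kinase is named, had a copy of the same kind. Rps6-ps4, a processed pseudogene with the same 750 coding bases, had 113, 41.9, 49.2 and 18.3 FPKM in the rFGF4 mice and 67.0, 20.3, 19.7 and 72.5 in the vehicle mice. Its 3 lowest values again came from rFGF4 mouse 5 and vehicle mice 3 and 4. Rps6 itself had 386, 278, 231 and 228 in the rFGF4 mice against 208, 261, 225 and 324 in the vehicle mice, with a log2 difference of 0.13 (SE 0.22). Rps6 and Rps6-ps4 were chosen after their values were seen.

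**Figure D4:**
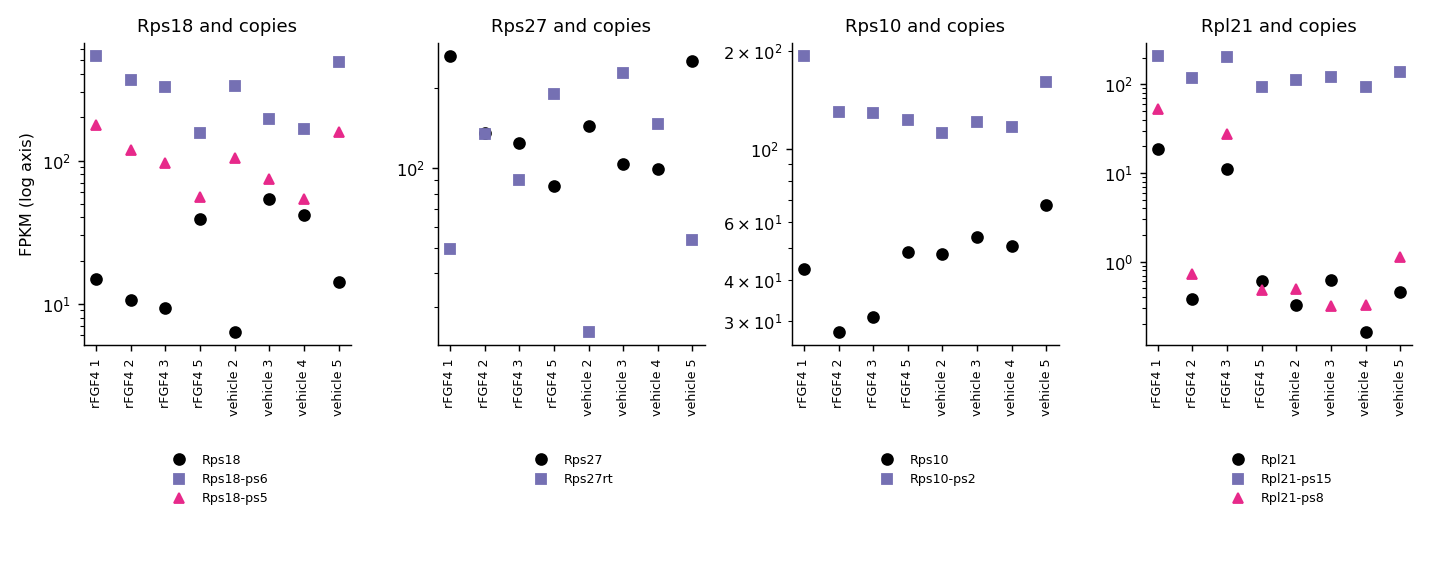
FPKM (log axis) of Rps18, Rps27, Rps10 and Rpl21 (black circles) and of their processed copies (coloured squares and triangles) in each of the 8 mice. Rps18 is high and Rps18-ps6 and Rps18-ps5 are low in rFGF4 mouse 5 and vehicle mice 3 and 4, where Rps27rt is above Rps27, and Rpl21 and Rpl21-ps8 are high only in rFGF4 mice 1 and 3.

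Over the whole set, 68 of the 87 genes had at least 1 copy with a mean of 1 FPKM or more, where a copy was a gene outside the set that held at least 30% of the coding words. In all, 324 copies were found, and 269 of them had such a mean. The ribosomal protein gene held a median of 69.2% of its family sum, and the families took 7.06%, 4.51%, 3.65% and 3% of the summed FPKM in the rFGF4 mice and 2.91%, 3.57%, 2.93% and 4.82% in the vehicle mice. Per family, 0 of 84 reached an unadjusted p under 0.05 in limma (1 of 84 for the genes alone), and the log2 differences ran from -0.32 (Rps25) to 0.40 (Rpl3), compared with -0.56 to 1.79 for the genes alone. The SD within a group was smaller for the family than for the gene in 31 of 84 cases and larger in 23, and its median was 0.33 for families and 0.345 for genes.

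**Figure D5:**
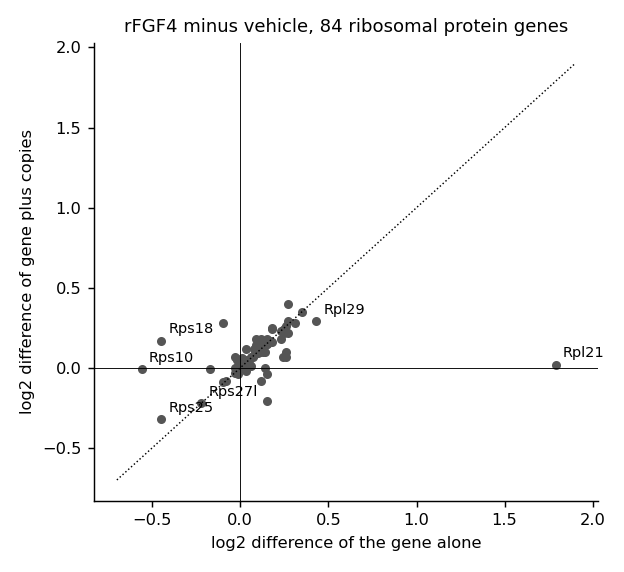
Log2 difference (rFGF4 minus vehicle) of each of the 84 tested ribosomal protein genes alone (horizontal axis) and summed with its copies (vertical axis), both on the log2(FPKM + 1) scale, with a dotted line where the 2 are equal. Rpl21 moves from 1.79 to 0.02 and Rps10 from -0.56 to -0.01, and Rps25 is lowest on the vertical axis at -0.32. Rpl21 held 0.487% and Rps10 23.8% of their family sums, so these sums mostly follow the copies and do not test the genes themselves.

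Genes with few shared words gave values less open to such splits. The 7 tested genes with 25% or fewer of their words shared, a limit chosen after the data were seen, had a median log2 difference of 0.17 with FPKM as deposited, and all 7 lay above 0 on that scale. Among them, Rpl8, named after its values were seen, had 419, 308, 276 and 248 FPKM in the rFGF4 mice and 272, 272, 246 and 323 in the vehicle mice. Its highest value in each group again came from rFGF4 mouse 1 and vehicle mouse 5. Rpl8 (0.15, SE 0.19) and Rps3 (0.15, SE 0.19), the latter also named after its values were seen, lay within the spread between mice.

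The levels of the ribosomal protein mRNAs, per length, spread widely although a ribosome holds most of these proteins in equal numbers. The mean FPKM of the 84 tested genes had a median of 103, and the 90th percentile was 10.1 times the 10th. For family sums, the median was 196 and this ratio was 8.32. Rplp1 was highest, with 915, 625, 509 and 459 in the rFGF4 mice and 456, 623, 486 and 713 in the vehicle mice. It was followed by the mean FPKM of Rps15 (583), Rpl36 (375), Rpl19 (353) and Rpl4 (331). These 4 differed between the groups by 0.05 (SE 0.23), -0.10 (SE 0.23), 0.04 (SE 0.19) and 0.26 (SE 0.20) on the log2 scale, each within the spread between mice.

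The acidic stalk of the large subunit, which recruits elongation factors, is built on Rplp0 with dimers of Rplp1 and Rplp2. Rplp0 had 486, 348, 325 and 279.6 FPKM in the rFGF4 mice and 251, 286, 261 and 346 in the vehicle mice. Its log2 difference was 0.31 (SE 0.20, limma p = 0.161, exact permutation p = 0.2). Rplp1 and Rplp2 differed by 0.11 (SE 0.26) and 0.16 (SE 0.23), and 0 of the 3 passed the test. With libraries weighted, Rplp0 had a limma p just under 0.05 at the same log2 difference of 0.31.

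Rpl5 and Rpl11 enter the large subunit with the 5S rRNA and, when not built in, bind MDM2 and so stabilise p53. Rpl5 had 158, 106, 95 and 95.4 FPKM in the rFGF4 mice and 84.2, 90.2, 92.5 and 107 in the vehicle mice. Rpl11 had 143, 104, 65.5 and 85.8 in the rFGF4 mice and 67.9, 110.2, 87.0 and 93.5 in the vehicle mice. The log2 differences of 0.25 (SE 0.18) and 0.11 (SE 0.25) did not pass the test. Of 15 tested genes of the p53 pathway, 1 higher gene and 0 lower genes had an unadjusted p under 0.05 in limma, where 4.62% of all genes tested had one in either direction, namely Sesn2, an inhibitor of mTORC1 (0.47, SE 0.19), and Ccng1, a p53 target, was the lower gene with the smallest p (-0.19, SE 0.18).

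Paralogs known from other tissues were at low levels. Rpl3l, expressed in heart and skeletal muscle, was listed between 0.284 and 0.669 FPKM in all 8 kidneys, against 53.6 to 133 for Rpl3. Rpl39l, known from testis, was listed at 0.122 in rFGF4 mouse 1, 0.0615 in vehicle mouse 2 and 0.237 in vehicle mouse 5 and at the floor of 0.0001 (the value used in place of 0) elsewhere. Rpl10l, also known from testis, and Rps12l1 were at the floor in all 8 libraries. These last 3 genes fell under the filter and had no test.

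The other paralogs were detected in all 8 libraries, most of them at levels in the lower range of the set. Rpl36al, a retrogene of Rpl36a, had 108, 103, 83.4 and 74.7 FPKM in the rFGF4 mice and 88.3, 91.3, 75.9 and 89.7 in the vehicle mice, with a mean of 89.3 against 55.7 for Rpl36a. Since all words of both are shared with other genes, the 2 levels are uncertain. Rpl22l1, a paralog of Rpl22 that is regulated by it, had 13.2, 9.25, 8.83 and 6.64 in the rFGF4 mice and 6.04, 7.29, 5.83 and 12.0 in the vehicle mice, below the range of 36.2 to 57.7 of Rpl22. Rps4l had 32, 9.56, 6.71 and 9.56 in the rFGF4 mice and 11.1, 9.83, 4.11 and 15.2 in the vehicle mice, well below Rps4x with 178 to 393. Rpl7l1 had 17.3 to 23.4 FPKM in the rFGF4 mice and 16.3 to 20.4 in the vehicle mice. Rpl32l, a processed pseudogene of the set and among its 3 lowest tested genes, had 5.56, 2.94, 4.79 and 3.01 in the rFGF4 mice and 3.02, 3.21, 4.62 and 5.20 in the vehicle mice (0.01, SE 0.23).

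None of the 6 tested paralogs passed the test. Their log2 differences ran from -0.22 (Rps27l) to 0.35 (Rps4l, SE 0.50), with 5 of 6 above 0 and a median of 0.13. The 8 parents (Rpl3, Rpl7, Rpl10, Rpl22, Rpl36a, Rpl39, Rps4x and Rps27) ran from -0.01 (Rpl39, SE 0.29) to 0.27 (Rpl3, SE 0.28, and Rps4x, SE 0.26), with a median of 0.11. Rpl7, Rpl10, Rpl22 and Rpl36a lay between, at 0.09, 0.15, 0.07 and 0.12.

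Rps27a, which is made as a fusion with ubiquitin and so also supplies free ubiquitin, had 107, 54.7, 46.0 and 52.1 FPKM in the rFGF4 mice and 50.2, 59.6, 50.6 and 61.3 in the vehicle mice. Only rFGF4 mouse 1 stood out, and the log2 difference was 0.15 (SE 0.25). Without that mouse it was -0.12. Among the other higher genes with the smallest p were Rpl29 (0.43, SE 0.26, exact permutation p = 0.257), whose FPKM was 159.7, 112, 92.9 and 96.8 in the rFGF4 mice and 71.0, 119.5, 58.9 and 94.8 in the vehicle mice, and Rps14 (0.25, SE 0.18). Without vehicle mouse 3 the difference of Rpl29 was 0.61, and it then passed the study's threshold.

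Of 19 genes mutated in Diamond-Blackfan anaemia, a failure of red cell production, all were tested, 15 lay above 0 and the median log2 difference was 0.02. Rps10 was the 1 gene of this list with an unadjusted p under 0.05. Of all genes tested, 67.1% lay above 0 and 4.62% had such a p. Rps19, the gene most often mutated in that disease, had 60.1, 35.5, 32 and 29.1 FPKM in the rFGF4 mice and 28.3, 35.3, 30.7 and 44.0 in the vehicle mice, a log2 difference of 0.14 (SE 0.24). Rps19 was chosen for its known role and lies outside the rule for named genes.

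The ribosomal proteins outside the name pattern followed the order of the libraries seen in the set. Rps3a1 had 749, 521, 448 and 403 FPKM in the rFGF4 mice and 376, 411, 372 and 584 in the vehicle mice, with a log2 difference of 0.27 (SE 0.24). Fau and Rack1, named for their role and outside the rule, had log2 differences of 0.04 (SE 0.20) and 0.18 (SE 0.21). The 4 genes of this list had a median of 0.11, and 0 passed the test. Of 319 genes named as pseudogenes of a ribosomal protein gene, 150 were tested, with a median of 0.11. The study's threshold called 4 of the 150 higher and 0 lower, where 1.09% and 0.442% of all genes tested were called. The higher ones were Rpsa-ps2 and, outside the rule for named genes, Rpsa-ps7, Rpl30-ps1 and Rps24-ps3, and Rpsa-ps2 had the smallest p, with 24.8, 15.2, 34.5 and 14.1 FPKM in the rFGF4 mice against 9.80, 10.7, 3.30 and 3.14 in the vehicle mice. The lower gene with the smallest p was Rpl27-ps2 (-0.35, SE 0.14), which on the log2(FPKM + 1) scale missed the fold limit at its low level. All 4 called genes had an adjusted p of 0.918 in limma.

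Other genes of translation are given for comparison, beside 67.1% of all genes tested above 0 and 4.62% with an unadjusted p under 0.05 in either direction, and their difference from the ribosomal proteins was not tested. Of 37 initiation factors, 36 lay above 0, with a median of 0.22, and 6 higher genes and 0 lower genes had an unadjusted p under 0.05 in limma. Eif2s3x, a subunit of the factor that brings the initiator tRNA, had 29.0, 27.1, 28.1 and 24.9 FPKM in the rFGF4 mice and 22.4, 18.4, 21.6 and 20.9 in the vehicle mice, without overlap. The lower factor with the smallest p was Eif5 (-0.68, SE 0.31). Eif1a, outside the rule for named genes, was the 1 initiation factor past the study's threshold (higher, adjusted p = 0.918 in limma), where 1.09% of all genes tested were called higher. Of 11 elongation and release factors, 11 lay above 0 (median 0.22, 2 with an unadjusted p under 0.05, both higher), Etf1, a release factor, having the smallest p (0.39, SE 0.14). Of 50 genes of rRNA synthesis and ribosome assembly, 48 lay above 0 (median 0.24, 4 with an unadjusted p under 0.05, all higher), led by Dkc1, which modifies rRNA (0.41, SE 0.16), while the lower gene with the smallest p was Nmd3 (-0.04, SE 0.11). The summed FPKM of the assembly genes was 759 in rFGF4 mouse 1 and 461 to 589 in the other 7 mice, and that of the initiation factors was 1343 and 885 to 1143. The library that was highest for the ribosomal proteins thus moved with these lists, and its part in their medians was not tested.

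Of 18 other mRNAs with a pyrimidine start, 18 lay above 0, with a median of 0.22, and 2 higher genes had an unadjusted p under 0.05. Eif4b, a helper of the initiation helicase and a substrate of S6 kinase, had 85.5, 71.6, 71.5 and 74.3 FPKM in the rFGF4 mice and 56.1, 42.0, 61.6 and 61.8 in the vehicle mice. Its groups did not overlap, and the log2 difference was 0.46 (SE 0.15, adjusted p = 0.918 in limma). Among 15 genes of mTORC1, S6 kinase and LARP1, 13 lay above 0 (median 0.12) and Eif4ebp2, a repressor of cap-dependent initiation, was the 1 gene with an unadjusted p under 0.05 (0.30, SE 0.12), Larp4 being lowest by p among those below 0 (-0.36, SE 0.36). Of 16 tested host genes of small nucleolar RNAs, which guide the modification of rRNA, 12 lay above 0 (median 0.12) and 0 passed the test, including Zfas1 (0.33, SE 0.22) and Snhg20 (-0.55, SE 0.31).

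The 2 sets of mitochondrial proteins lay lower. The 78 mitochondrial ribosomal proteins had a median of -0.02, with 36 above 0, and the 37 subunits of complex I a median of -0.21, with 2 above 0, 4 lower genes and 0 higher genes with an unadjusted p under 0.05 in limma (4.62% of all genes tested in either direction), and 5 whose groups did not overlap, against 3.33% of all genes tested. Of the mitochondrial ribosomal proteins, 2 lower genes and 0 higher genes had such a p, and 5 had groups that did not overlap. The summed FPKM of complex I was lowest in rFGF4 mouse 1 (2329) and vehicle mouse 5 (2736), against 2748 to 3423 in the other 6, and the part of these libraries in its median was not tested. The study's threshold called 1 mitochondrial ribosomal protein, Mrps21, lower, where 0.442% of all genes tested were, with 39.0, 46.0, 43.8 and 45.8 FPKM in the rFGF4 mice and 126, 169, 128 and 49.0 in the vehicle mice (adjusted p = 0.918 in limma). The other genes with the smallest p in a direction were Mrps23 (0.68, SE 0.30), Ndufa6 (-0.30, SE 0.11) and Ndufa4 (0.17, SE 0.17). The difference between these sets and the cytosolic ribosomal proteins was not tested. The cell type markers had medians of -1.93 (6 tested of red blood cells, Hba-a1 -1.97), -0.22 (5 endothelial, Tek -0.38), 0.43 (7 macrophage, Mrc1 0.42), -0.06 (5 lymphoid, Igkc 0.20 and Cd79b -0.64) and -0.09 (10 kidney, Umod 0.39 and Slc12a1 -0.44).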

How the data were processed

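Kidney poly(A) RNA of 8 mice was analysed. The submitters' processing notes name HISAT2 2.0, Bowtie 0.12.2, StringTie 1.3.0 and the build mm8, and the methods of the study describe assembly with StringTie and gffcompare. The authors deposited FPKM per gene, with 0.0001 standing for 0. How reads that match several genes were shared is not given in the sources used here. Columns holding the authors' fold changes, p-values and q-values were not used. The study's methods name a test made for counts, and the table holds none, so log2(FPKM + 1) was compared with limma 3.58.1 in R 4.3.3 (trended prior variance, Benjamini-Hochberg over the 15150 genes that reached 0.5 FPKM in 4 or more of the libraries). Fold changes on this scale understate those of low genes. For single genes a two-sided exact permutation test of mean FPKM was added. Gene positions and transcripts came from GENCODE M21 (GRCm38), which held 99.5% of the identifiers, and promoters from RefSeq (GRCm38.p6).

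The genes and lists were chosen with earlier results of these data known. The text names the stalk and 5S particle proteins, the paralogs and their parents, Rps27a, the 6 lower and 6 higher genes with the smallest p, the 5 highest and 3 lowest tested genes by mean, the genes under the filter, and from every other list the gene with the smallest p in each direction. Genes named outside this rule are marked as such or stand beside a gene as its copy. Coding sequences were those of the principal transcript. Alternatives covered the pseudocount, the filter, 3 scalings, library weights, a block by mouse number and each library left out. A few single genes are not reported here by name.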

Additional observations from a re-analysis of the deposited data

How the results depend on the processing

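The count of ribosomal protein genes called lower was 0 and rose to 1, Rps10, after scaling to a common median ratio, with array weights and with the replicate block, and it was 0 to 1 when single libraries were left out. The count called higher was 0 and also 0 to 1 when single libraries were left out (Rpl21 without rFGF4 mouse 2 or 5, Rpl29 without vehicle mouse 3). The count with an unadjusted p under 0.05 was 1 as reported and 2 with array weights and under the median-ratio scaling. It was 0 after scaling to a common total sum (TPM) and with copies summed, and 0 to 2 with single libraries left out, being 0 without rFGF4 mouse 3 or vehicle mouse 5. The count with an adjusted p under 0.05 stayed at 0 in all 19 alternatives. The median log2 difference was -0.085 to 0.208 with single libraries left out and 0.005 to 0.327 under the 3 scalings. Without the mitochondrial genes in the total, the share of ribosomal protein genes was 2.64%, 3.15%, 2.68% and 3.62% in vehicle mice 2, 3, 4 and 5.

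Mouse numbers 2, 3 and 5 occur in both groups, but no source describes them as pairs. For this reason the numbers were not taken as pairs. Deviations from the group mean of same-numbered mice correlated at -0.23, -0.16 and -0.39 over all genes tested. Those of differently numbered mice ran from -0.56 to 0.57, so these correlations cannot settle whether mice were paired. With the replicate block, which rests on those 3 numbers, the median log2 difference was -0.14, and values that were above 0 as reported became -0.07 (Rpl10), -0.19 (Rpl36a), -0.12 (Rpl7, and also Rplp2), -0.16 (Rplp1, and also Rps27a), -0.21 (Rps15), -0.46 (Rps27), -0.43 (Rps4l) and -0.02 (Rps4x). Rps27a was -0.12 to 0.28 with single libraries left out, being below 0 only without rFGF4 mouse 1. After scaling to a common total sum, Rpl36 became 0.13 and Rps27l 0.01. None of these reversed values had an unadjusted p under 0.05 in limma in either fit, and the cause was not tested. Of 32 named genes tested, 11 kept their sign in all 19 alternatives, 2 of which (both libraries that stood apart left out, and copies summed) were added after the data were seen.

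The depth of a library cannot be read from this table, so counting error was not estimated. With 4 mice a group and a median standard error of 0.23, a difference of 1.5-fold lay inside the 95% interval of most ribosomal protein genes.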
